A study of Macaca mulatta and Mus musculus and Rattus norvegicus with 12 samples.

Results

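Small leucine-rich proteoglycans are secreted matrix proteins built on a leucine-rich repeat core, most of which carry glycosaminoglycan chains. The 10 genes described here were chosen by name as members of this family: DCN, BGN and ASPN of class I, FMOD, LUM, PRELP, KERA and OMD of class II, and OGN and EPYC of class III. All 10 had a row among the 38599 gene symbols of the mouse table and among the 35259 of the rat table. In the macaque table of 28641 symbols 8 of them had a row, and ASPN and EPYC had none. Poly(A)+ RNA was sequenced in 12 libraries of bone from the calvaria, the vault of the skull, and from the tibia, prepared so as to enrich for osteocytes, the cells buried in mineralized bone. The mouse libraries came from C57BL6 animals labelled as 4 months old, with 3 animals pooled in each library, and comprised 2 of calvaria (M4 and M8) and 2 of tibia (M5 and M7). The rat libraries, 1 of calvaria (R1) and 1 of tibia (R3), came from Wistar animals labelled as 6 months old, with 2 animals pooled in each. The rhesus macaque libraries, 3 of calvaria (G1, G3 and T1) and 3 of tibia (G2, G4 and T2), came from 1 animal each, for which the label gives an age of 4 to 6 months whereas the study's methods count it in years. The animals were female, and the labels name no treatment or engineered allele. The bone was stripped of periosteum, scraped and briefly digested with collagenase, and the marrow of the rodent tibias was spun out. Calvaria and tibia of the same animal or pool formed pairs, but which libraries belong together is not named.

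Decorin (DCN) and biglycan (BGN) bind collagen and also transforming growth factor beta. Fibromodulin (FMOD), lumican (LUM), decorin and prolargin (PRELP) bind collagen fibrils and are known for their part in fibril growth and spacing. Osteomodulin (OMD) is a keratan sulfate proteoglycan of mineralized tissue, asporin (ASPN) binds collagen and calcium, and osteoglycin (OGN) is a small proteoglycan first purified from bone. Keratocan (KERA) is best known from the cornea and epiphycan (EPYC) from growth cartilage. Biglycan and decorin are made by bone-forming cells, and several of these genes are also strongly expressed by the fibroblasts of periosteum, tendon and ligament.

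In the mouse genome (GRCm38, GENCODE vM21) 9 of the 10 genes lay in groups on chromosomes 1, 10 and 13. Chromosome 10 held DCN (97479609 to 97518143), LUM (97565128 to 97572703), KERA (97606879 to 97613692) and EPYC (97644068 to 97682454), all on the plus strand and each within 47.0 kb of the nearest other one. Chromosome 13 held ASPN (49544443 to 49567565), OMD (49582462 to 49592822) and OGN (49608046 to 49624501), 14.9 and 15.2 kb apart. Chromosome 1 held PRELP (133910304 to 133921414, minus strand) and FMOD (134037254 to 134048277, plus strand), 115.8 kb apart. BGN lay alone on the X chromosome (73483602 to 73495933, plus strand). These spans are whole genes, and the reads counted for each gene fell on its merged exons.

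Reads counted on genes numbered from 13934813 to 16826535 in the 4 mouse libraries, from 12233256 to 14255423 in the 2 rat libraries and from 7951585 to 10342459 in the 6 macaque libraries. Rodent libraries were sequenced on one lane and macaque libraries on another. Species, genome and annotation cannot be told apart, and between macaque and rodents neither can lane. The osteocyte markers SOST, DMP1 and MEPE had reads in every library, although SOST had only 5 and 15 reads in rat. The summed level of 8 osteocyte markers in CPM (reads scaled to a common library size) ran from 1248 to 2095 in mouse calvaria and from 7935 to 10726 in mouse tibia, and from 5179 to 6033 in macaque calvaria and from 8113 to 17842 in macaque tibia. In rat it was 544 in the calvaria and 7274 in the tibia. The calvaria libraries thus had the lower summed osteocyte marker level in each species. In macaque MEPE made up most of the sum, at 4608 to 5341 CPM in calvaria and 7099 to 16671 in tibia. DMP1 overlapped there, at 143 to 175 CPM in calvaria and 144 to 233 in tibia. Of the 8 markers 3 (37.5%) were called as higher in macaque tibia, against 9.43% of all genes. Another 1 (12.5%) was called as higher in macaque calvaria, against 10.3%. In bulk RNA fewer cells of a type and less RNA per cell cannot be told apart.

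The 10 genes together took 0.446% of the reads of M4 and 0.148% of those of M8, against 0.557% of M5 and 0.490% of M7. Their share in rat was 0.0375% in R1 and 0.0474% in R3, with 5 genes carrying nearly all of it. In macaque the 8 genes with a row took from 0.0834% to 0.104% of the reads in G1, G3, G4 and T1, 0.115% in G2 and 0.179% in T2. The 2 mouse calvaria libraries thus differed by more from each other than M4 differed from either tibia library.

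**Figure D1:**
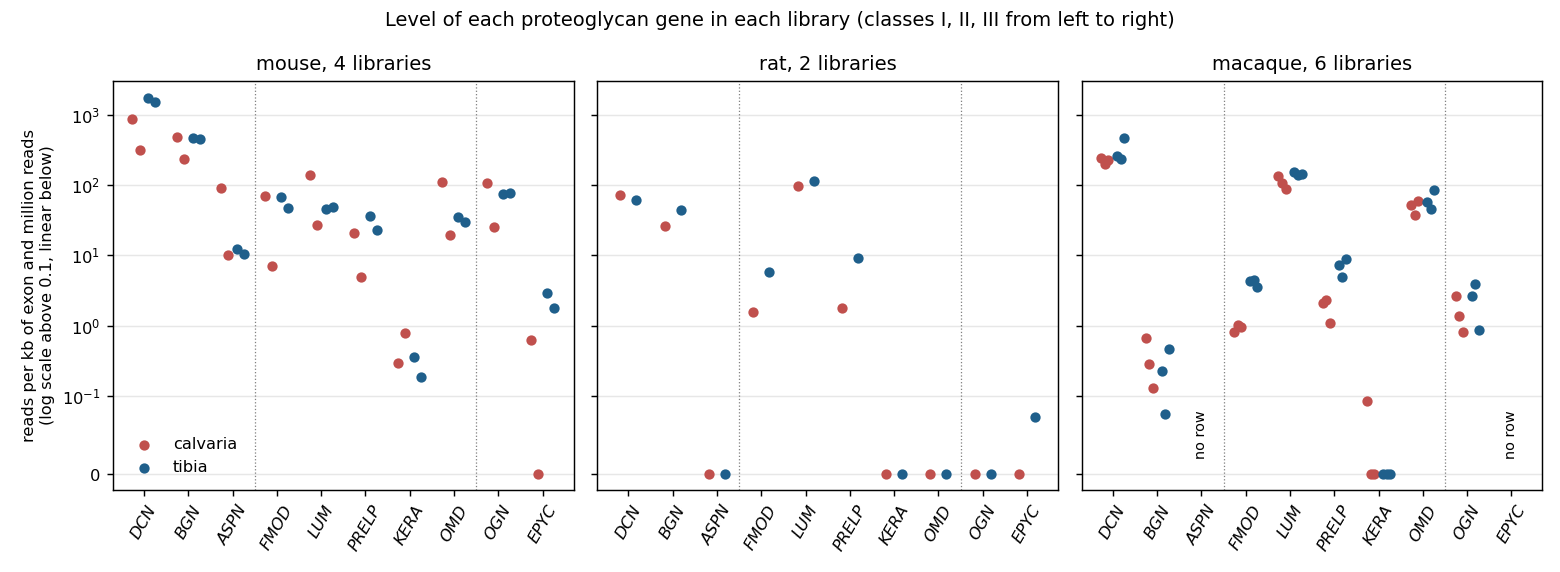
Level of each proteoglycan gene in each library, as RPKM (reads per kilobase of exonic length, scaled to the reads on genes of the library), on an axis that is logarithmic above 0.1 and linear below. Each point is 1 library, red for calvaria and blue for tibia, and dotted lines part classes I, II and III. DCN stands highest in every mouse and macaque library, BGN second in mouse and close to 0 in macaque, and 4 genes lie at 0 in both rat libraries.

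Levels of different genes were compared after division by exonic length in kilobases and by the reads of the library (RPKM). In mouse tibia DCN stood highest at 1618 ± 182 (SD, n = 2), followed by BGN at 457.8 ± 2.24, OGN at 75.7 ± 0.874, FMOD at 58.0 ± 14.8, LUM at 47.4 ± 2.55, OMD at 32.7 ± 3.75, PRELP at 29.7 ± 9.39, ASPN at 11.5 ± 1.40, EPYC at 2.33 ± 0.792 and KERA at 0.273 ± 0.117. FMOD and LUM had overlapping ranges there, as did OMD and PRELP, and the other neighbours in this order did not. In mouse calvaria DCN was at 853 in M4 and 310 in M8 and BGN at 485 and 232, so the order of the leading pair was the same within each library. LUM followed in mean, at 139 in M4 and 26.9 in M8, and its range overlapped those of OGN, OMD, ASPN and FMOD.

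In macaque the order was DCN, LUM and OMD at both sites. The level of DCN ran from 196 to 239 on the same scale in calvaria, that of LUM from 88.6 to 134 and that of OMD from 37.0 to 58.5, with no overlap between neighbours. In macaque tibia DCN ran from 232 to 467, LUM from 139 to 155 and OMD from 46.3 to 86.1, again with no overlap. PRELP, OGN and FMOD followed at no more than 8.79 in any library. OGN overlapped with PRELP in the calvaria and with FMOD at both sites. BGN, the second most abundant of these genes in mouse, was at 0.0772 to 0.660 in macaque, on 1 to 9 reads a library. In rat LUM stood first, at 96.7 in R1 and 114 in R3, ahead of DCN at 71.9 and 61.2 and BGN at 26.3 and 43.8. Across species these levels also carry the annotation of each genome, whose part was not tested.

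Whether these genes differ between skull and limb bone was asked within each species. In mouse, 2 of the 10 genes were called, which here means a false discovery rate under 0.2 together with a fold change above 1.1. The test was the quasi-likelihood test of edgeR, with p-values adjusted after Benjamini and Hochberg over all 22339 genes with reads. DCN fell in the calvaria and ASPN rose, and the ASPN call rested on 1 library. Of all genes tested, 2.28% were called, 0.712% as higher in calvaria and 1.57% as higher in tibia. The median log2 fold change of calvaria over tibia was -0.22 over the 10 genes and 0.05 over all genes tested. The libraries of the sites did not overlap for 3 of the 10 genes, DCN, PRELP and EPYC, against 35.7% of all genes, so that the share without overlap was near the background.

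DCN had 27679 reads in M4 and 9007 in M8, against 61231 in M5 and 45083 in M7. Scaled by library size and TMM factor (normalized CPM), this was 1771 and 686 in calvaria and 3460 and 3084 in tibia, so both calvaria libraries lay below both tibia libraries. Its log2 fold change was -1.41 ± 0.36 (SE), with an adjusted p of 0.1005 in edgeR's quasi-likelihood test. With genes left out that lack reads in some library, as the study did before its own test, neither DCN nor ASPN was called (adjusted p of 0.629 and 0.664 in edgeR). The DCN call was also lost without M5 (adjusted p = 0.490 in edgeR, log2 fold change -1.33) and with genes of low count left out (adjusted p = 0.585), while the size of the difference stayed between -2.28 and -0.89 over all fits run.

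BGN had 18725 reads in M4 and 8029 in M8, against 19168 in M5 and 16435 in M7. Its normalized CPM was 1198, 612, 1083 and 1124 in that order, so M8 alone was low and the sites overlapped. Its log2 fold change was -0.29 ± 0.30 (SE) with an adjusted p of 0.874 in edgeR's test. DCN and BGN thus had unequal differences. Within a library, where scaling has no part, the log2 ratio of DCN to BGN reads was 0.56 in M4 and 0.17 in M8 but 1.68 in M5 and 1.46 in M7. Calvaria minus tibia was -1.20 in mean, with no overlap, and the 2-sided exact permutation test gave p = 0.333, the smallest that 2 libraries against 2 allow. DCN alone made up 39.9% and 43.6% of the reads of the 10 genes in calvaria and 65.3% and 63.4% in tibia.

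ASPN had 3347 reads in M4 and 335 in M8, against 494 in M5 and 359 in M7. In normalized CPM these were 214, 25.5, 27.9 and 24.6, so M4 was high and M8 lay among the tibia libraries. The log2 fold change was 2.19 ± 0.62 (SE) with an adjusted p of 0.170 in edgeR's test, and -0.07 without M4 (adjusted p = 0.840). With M4 paired to M5 and M8 to M7, an assumed pairing, the adjusted p was 0.641 in edgeR and the call was lost.

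Among the class II genes of mouse none was called, although PRELP was with an offset for exonic length together with the assumed pairs as a block (log2 fold change -1.37, adjusted p = 0.161 in edgeR). FMOD had 3091 reads in M4 and 284 in M8, against 3296 in M5 and 1974 in M7. PRELP had 1256 and 268 in calvaria and 2346 and 1285 in tibia. FMOD overlapped between the sites because M4 was at the tibia level, with normalized CPM of 198 beside 186 and 135, and only M8 lay below, at 21.6. PRELP did not overlap, at 80.4 and 20.4 in calvaria and 132.6 and 87.9 in tibia, and had a log2 fold change of -1.13 ± 0.46 (SE, adjusted p = 0.486 in edgeR), which was -2.46 without M4 and -0.46 without M8, against -0.55 ± 0.62 (adjusted p = 0.874) for FMOD.

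LUM had 4504 reads in M4 and 777 in M8, against 1593 in M5 and 1484 in M7, and OMD had 6597 and 1053 against 2282 and 1674. In both genes M4 was the highest library and M8 the lowest. The log2 fold change was 0.86 ± 0.49 (SE) for LUM and 1.05 ± 0.51 for OMD, with adjusted p of 0.756 and 0.656 in edgeR, and without M4 the signs turned, to -0.72 and -0.63. KERA had 10, 24, 13 and 6 reads in M4, M8, M5 and M7, too few to tell the sites apart (log2 fold change 1.08 ± 0.92, adjusted p = 0.874 in edgeR).

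Of the class III genes, OGN had 4203 reads in M4 and 888 in M8, against 3210 in M5 and 2817 in M7. Here too M4 was highest and M8 lowest, and the log2 fold change was -0.15 ± 0.44 (SE, adjusted p = 0.941 in edgeR). EPYC had 17 reads in M4, none in M8, 85 in M5 and 45 in M7. The sites did not overlap, but with a log2 fold change of -2.80 ± 0.94 (SE) and an adjusted p of 0.301 in edgeR EPYC was not called. COL2A1, the main collagen of cartilage, had 909 and 137 reads in the same calvaria libraries and 10478 and 6963 in the tibias. ACAN had 98 and 15 against 168 and 219. COL9A1 had 21 and 4 against 17 and 6, with a log2 fold change of 0.27, and was not called. Of 13 cartilage markers 6 (46.2%) were called as higher in tibia, against 1.57% of all genes. Their summed level was from 203 to 420 CPM in calvaria and from 863 to 1022 in tibia, and its part in the EPYC difference was not tested.

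**Figure D2:**
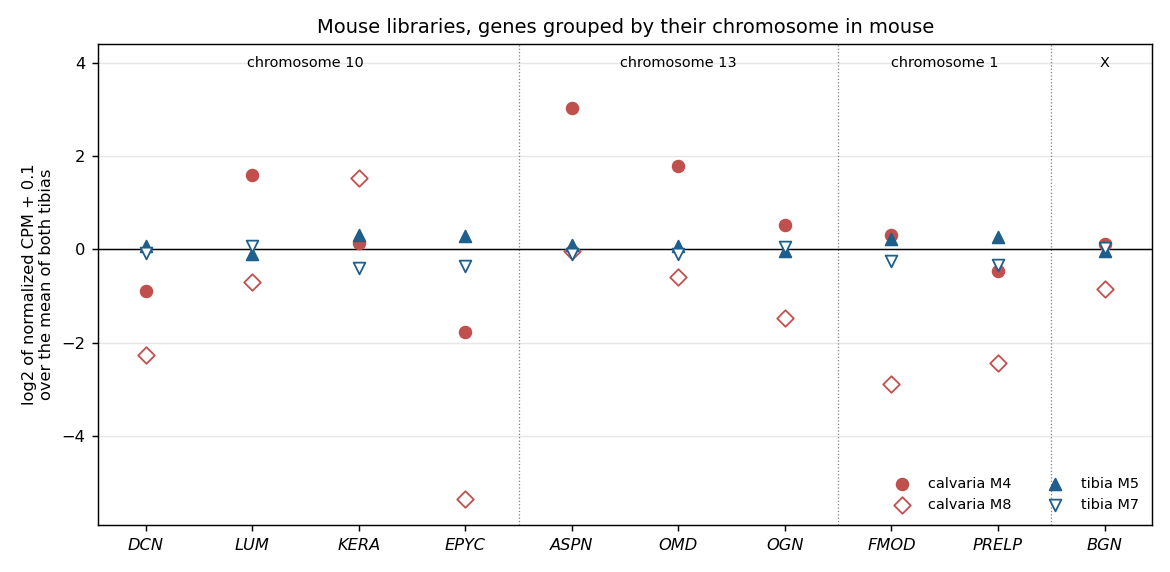
Level of each gene in each mouse library as the log2 of normalized CPM plus 0.1 over the mean of both tibias, with genes grouped by chromosome. Filled red circles (M4) lie above open red diamonds (M8) for every gene except KERA, and both lie below 0 for DCN, EPYC and PRELP.

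The calvaria replicates of mouse were far apart for these genes. All but KERA were higher in M4 than in M8, from 1.96-fold for BGN and 2.58-fold for DCN to 8.39-fold for ASPN and 9.14-fold for FMOD in normalized CPM, and KERA, with 10 and 24 reads, was 2.86-fold lower. EPYC had no reads in M8, so no fold is given for it. The absolute log2 ratio of M4 to M8 had a median of 0.48 over 14427 genes, below that of each of the 9 genes with a fold. Between M5 and M7 none of the 10 genes differed by more than 1.79-fold, the value of KERA, and the median absolute log2 ratio of all genes was 0.18. The genes of a chromosome group did not share 1 fold between M4 and M8. On chromosome 10 it was 4.87 for LUM and 2.58 for DCN, with KERA turned the other way, and on chromosome 13 it was 8.39 for ASPN, 5.26 for OMD and 3.97 for OGN.

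The marker lists moved with this split too, and all but that of blood cells were higher in M4 than in M8. SCX, a transcription factor of tendon cells, had 339 reads in M4, 50 in M8, 118 in M5 and 89 in M7. TNMD had 375, 179, 292 and 230 in that order, and MKX 120, 22, 86 and 51. The summed level of 11 tendon, ligament and periosteal fibroblast markers was 1302 CPM in M4, 429 in M8, 1009 in M5 and 821 in M7, and that of 7 osteoblast markers 27113, 12315, 18593 and 12242. From M8 to M4 the summed level went from 1248 to 2095 CPM for osteocyte, 203 to 420 for cartilage, 452 to 804 for adipocyte, 1590 to 2705 for skeletal muscle, 170 to 196 for endothelial and 2416 to 4076 for osteoclast markers. Of the 11 fibroblast markers none was called as higher in calvaria and 1 as higher in tibia. Blood cell markers were highest in M8, at 5333 CPM against 2735 to 3168 in the other mouse libraries. The part of these cells in the levels of the 10 genes was not tested.

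In macaque, 2 of the 8 genes were called, FMOD and PRELP, and both fell in the calvaria. Of all 18894 genes tested 19.7% were called, 10.3% as higher in calvaria and 9.43% as higher in tibia. The share of called genes among the 8 was near the share among all genes. The same 2 genes were those whose sites did not overlap, against 24.9% of all genes. The median log2 fold change over the 7 genes for which a fold can be given was -0.36, against 0.03 over all genes tested.

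FMOD had 22 reads in G1, 29 in G3 and 29 in T1, against 115 in G2, 116 in G4 and 121 in T2. In normalized CPM this was 2.65, 3.64 and 3.51 in calvaria and 12.6, 13.2 and 11.7 in tibia, so the sites were well apart with little spread within either. FMOD had a log2 fold change of -1.93 ± 0.36 (SE) with an adjusted p of 0.000153 in edgeR's quasi-likelihood test. It lay between -2.14 and -1.80 over all fits run, and among the G libraries alone it was -2.02.

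PRELP had 31 reads in G1, 35 in G3 and 18 in T1, against 104 in G2, 68 in G4 and 159 in T2. The normalized CPM was 3.74, 4.39 and 2.18 in calvaria and 11.4, 7.76 and 15.4 in tibia, again without overlap. PRELP had a log2 fold change of -1.74 ± 0.38 (SE) with an adjusted p of 0.00141 in edgeR's test, between -1.96 and -1.22 over all fits run. The value nearest to 0 was that of the G libraries alone (adjusted p = 0.0317). T1 and T2 stood further apart than the G libraries of either site.

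**Figure D3:**
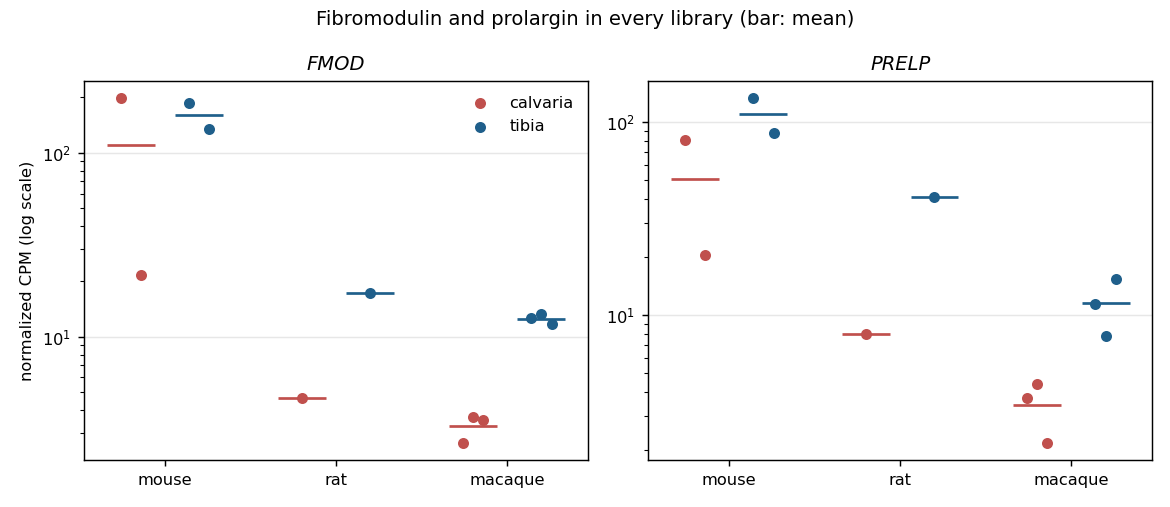
Normalized CPM of FMOD (left) and PRELP (right) in every library on a log axis, red for calvaria and blue for tibia, with a bar at the mean of each site. The rat libraries were scaled by library size alone, without TMM factors. Tibia lies above calvaria without overlap in macaque for both genes, on 3 libraries a site, and in the single rat pair, while M4 of mouse reaches the tibia level for FMOD.

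The other macaque genes were not called. DCN had 5863 reads in G1, 4952 in G3 and 6130 in T1, against 6102 in G2, 5403 in G4 and 14143 in T2. In normalized CPM 5 libraries lay between 617 and 743 and T2 at 1373, so T2 alone was high. The log2 fold change was -0.36 ± 0.22 (SE, adjusted p = 0.358 in edgeR) and 0.11 without T2, and DCN was called as lower in calvaria without G2, without G4 and when libraries were scaled by size alone. T2 also had the highest osteoblast marker level, 62711 CPM against 17554 and 18125 in G4 and G2 and 25323 to 45378 in the calvaria, and the part of those cells was not tested.

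LUM had 1973, 1623 and 1460 reads in G1, G3 and T1 and 2227, 1944 and 2616 in G2, G4 and T2. OMD had 721, 526 and 899 against 767, 607 and 1467. The log2 fold change was -0.22 ± 0.18 (SE) for LUM and -0.18 ± 0.22 for OMD, with adjusted p of 0.531 and 0.666 in edgeR. LUM overlapped only narrowly, with G1 among the tibia libraries, and OMD was high in T1 and T2 and low in the G libraries of both sites.

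OGN had 47, 25 and 16 reads in G1, G3 and T1 and 46, 65 and 19 in G2, G4 and T2, with the T libraries lowest at each site (log2 fold change -0.40 ± 0.49, adjusted p = 0.666 in edgeR). BGN had 9, 4 and 2 reads in calvaria and 3, 1 and 8 in tibia, and its log2 fold change of 0.55 ± 1.22 (adjusted p = 0.830 in edgeR) was smaller than its error. KERA had 2 reads in G1 and none elsewhere, so no fold is given. The log2 ratio of DCN to BGN was 10.2 ± 0.999 (SD, n = 3) in calvaria and 11.1 ± 0.625 in tibia (2-sided exact permutation test, p = 0.3, n = 3), and it rests on those few BGN reads.

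The macaque sites differed in markers of other cells. All 9 blood cell markers tested were called as higher in calvaria, with a summed level of 26922 to 39337 CPM there and 7290 to 10658 in tibia. Of 6 adipocyte markers 4 were called as higher in calvaria, with a summed level of 2298 to 3070 CPM there and 794 to 1883 in tibia, and of 6 osteoclast markers 3, at 1309 to 1624 against 422 to 1577. The fibroblast markers held 3189 to 3960 CPM in calvaria and 3452 to 3891 in tibia, with 3 of 8 called as higher in tibia, and of their defining genes SCX had no row, MKX no read and TNMD 13, 16 and 26 reads in calvaria and 56, 30 and 76 in tibia. The part of these cells, and of the lower summed osteocyte marker level of the calvaria, in the FMOD and PRELP differences was not tested.

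In rat, with 1 library a site, the log2 ratio of CPM with 1 read added was set against a threshold of 2, and there is no replicate check. Of the 6 genes with reads only PRELP passed it, as 9.69% of all 19234 genes with reads did, 8.14% on the tibia side. PRELP had 113 reads in R1 and 499 in R3, a log2 ratio of -2.35 with a 95% counting interval of -2.67 to -2.07, computed from the exact binomial interval of the reads and covering counting error only. FMOD had 66 and 211 reads and a log2 ratio of -1.88 (interval -2.32 to -1.49), just short of the threshold.

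DCN had 1880 reads in R1 and 1373 in R3, so its log2 ratio of 0.23 (95% counting interval 0.13 to 0.33) was on the calvaria side. BGN had 911 and 1303 reads with a ratio of -0.74. The log2 ratio of DCN to BGN reads within a library was 1.04 in R1 and 0.0755 in R3, and DCN made up 35.1% and 23.7% of the reads of the 10 genes, so both were higher in the calvaria, the other way from mouse. LUM had 2381 and 2406 reads with a ratio of -0.24 that turned to 0.05 with TMM factors. The median ratio of all rat genes was -0.29, so LUM lay near the median and DCN above it. EPYC had 2 reads in R3 and none in R1, and KERA, OMD, OGN and ASPN had none in either library. The rat tibia held skeletal muscle transcripts, 946 CPM over 10 markers against 8.70 in the calvaria, with 9 of 10 past the threshold, and their part in the ratios was not tested.

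The absence of OMD, OGN and ASPN in rat covered the whole chromosome group that neighbours them in mouse, 3 genes that had from 335 to 6597 reads a library there. OGN and ASPN were each listed in 2 rows of the rat table, and the 2 OGN rows had the same exonic length of 3096 bases. NOL8, listed in 2 rows beside them, also had no reads in either rat library, a gene looked at after the values were seen. Of all rat symbols listed more than once 45.4% had no reads, against 45.4% of those listed once. Why these genes had no reads was not tested. For these 3 genes rat gives no measure of level.

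**Figure D4:**
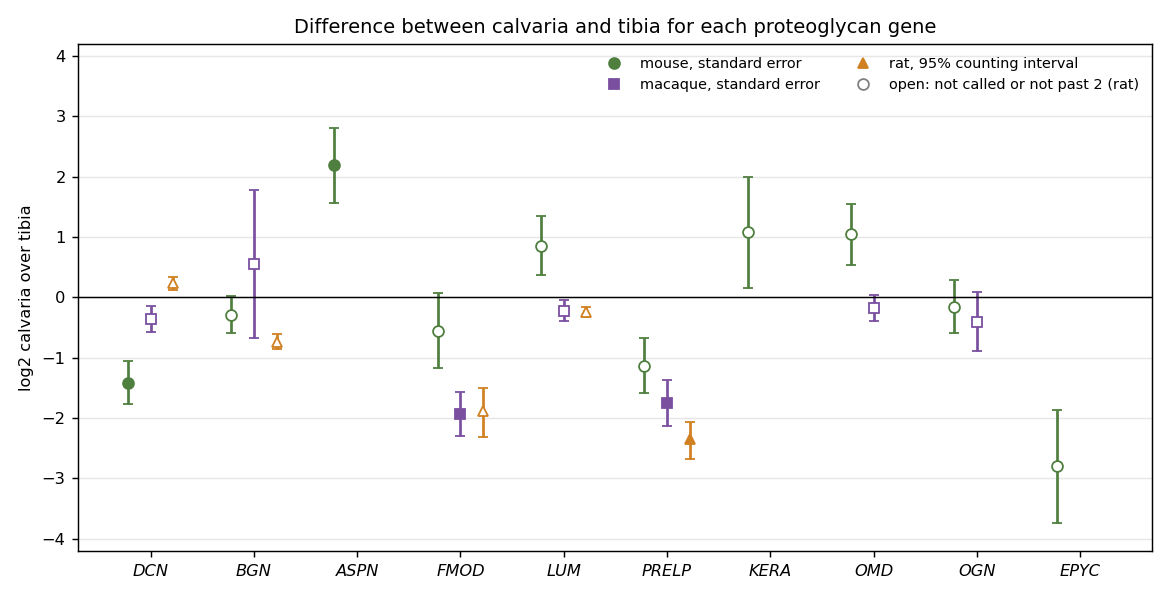
Log2 of calvaria over tibia for each gene in mouse (green circles) and macaque (purple squares) with standard errors, and in rat (orange triangles) with 95% counting intervals. Filled symbols mark called genes or, in rat, a ratio past 2; FMOD and PRELP lie below 0 in all 3 species and DCN lies below 0 in mouse and macaque and above 0 in rat.

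Side by side, PRELP had a log2 difference of -1.13 in mouse, -2.35 in rat and -1.74 in macaque, and FMOD of -0.55, -1.88 and -1.93. BGN had -0.29, -0.74 and 0.55, and LUM 0.86, -0.24 and -0.22. Whether the site difference itself differed between mouse and macaque was tested as the interaction of species and site over the 10 libraries of both. None of the 8 genes was called by edgeR's quasi-likelihood test at a false discovery rate under 0.2, against 4.89% of 11564 genes, and 0 had an unadjusted p under 0.05. The difference between the species was 1.08 ± 0.55 (SE) on the log2 scale for DCN (adjusted p = 0.411 in edgeR), -1.36 ± 0.88 for FMOD, -1.20 ± 0.72 for OMD, -1.06 ± 0.62 for LUM and -0.59 ± 0.70 for PRELP. With the assumed pairs as a block DCN was called (1.32, adjusted p = 0.131 in edgeR), as 8.74% of all genes were. It was also called without T2 (1.53), as 9.42% of all genes were. Without M4 or M8 the mouse calvaria has 1 library, so only sizes are given. Without M4 the difference was 1.90 for DCN, 0.96 for FMOD, 0.47 for LUM, 0.43 for OMD and 0.68 for PRELP. Without M8 it was 0.53 for DCN, -2.24 for FMOD, -1.81 for LUM, -1.97 for OMD and -1.29 for PRELP.

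The partners of these proteoglycans were described from lists of related genes. Among 10 genes for the ligands (TGFB1 to TGFB3), receptors and latent binding proteins of transforming growth factor beta, whose ligands DCN and BGN bind, 3 (30%) were called as higher in mouse tibia, against 1.57% of all genes. In macaque 6 of 9 (66.7%) were, against 9.43% of all genes, and in neither species was one called as higher in calvaria. In macaque these included TGFB2, a ligand (log2 fold change -1.25 ± 0.20, SE), TGFB3 (-1.26 ± 0.33) and LTBP1, which holds the latent ligand in the matrix (-0.87 ± 0.21). The adjusted p in edgeR was 1.1e-05 for TGFB2, 0.00713 for TGFB3 and 0.00438 for LTBP1. In mouse the called genes were LTBP1 (-1.72 ± 0.28), TGFBR3, a co-receptor (-1.27 ± 0.30), and TGFB2 (-1.13 ± 0.32), with adjusted p of 0.00641, 0.0795 and 0.178 in edgeR. In rat 5 of 10 (50%) passed the ratio on the tibia side, against 8.14% of all genes with reads. Among them was TGFB2 at 42.4 CPM in R1 and 1110 in R3. The summed osteocyte marker level was also lower in the calvaria of each species, and its part in these values was not tested. The median log2 difference of the list was -0.85 in mouse, -2.05 in rat and -0.58 in macaque. Over all genes, the measure for each list median below too, it was 0.05 in mouse, -0.29 in rat and 0.03 in macaque.

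Among 26 genes of collagens and of fibril assembly, 1 was called as higher in mouse calvaria (3.85%, against 0.712% of all genes) and 3 as higher in tibia (11.5%, against 1.57%). COL3A1, a fibrillar collagen of soft connective tissue, had a log2 fold change of 2.75 ± 0.58 (SE, adjusted p = 0.0401 in edgeR), with a calvaria mean of 485 ± 499 (SD, n = 2) normalized CPM that shows how far apart M4 and M8 were. TNXB, a fibril-associated matrix protein, and PCOLCE2, an enhancer of procollagen processing, were lower in mouse calvaria (-2.80 ± 0.51 and -1.72 ± 0.39, adjusted p of 0.0160 and 0.0537 in edgeR), as was COL11A1 (-1.39 ± 0.33, adjusted p = 0.0777). In macaque TNXB was called as higher in calvaria (0.98 ± 0.39, adjusted p = 0.112 in edgeR) and TLL1, a procollagen proteinase, and COL6A1 as lower (-3.02 ± 0.71 and -0.54 ± 0.18, adjusted p of 0.00286 and 0.0430). In rat 2 of 24 genes (8.33%) passed, both on the tibia side, against 8.14% of all genes with reads. The list median was 0.28 in mouse, -0.53 in rat and -0.08 in macaque.

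The enzymes that build and sulfate the glycosaminoglycan chains were called about as often as all genes, at 3.23% against 2.28% in mouse and 14.8% against 19.7% in macaque. Of 31 tested in mouse only CHST1, a keratan sulfate sulfotransferase, was called, as lower in calvaria (-1.85 ± 0.37, SE, adjusted p = 0.0289 in edgeR). Of 27 tested in macaque 2 were called in each direction. B3GNT2, which extends polylactosamine, and PAPSS2, which makes the sulfate donor, fell in calvaria (-1.05 ± 0.21 and -0.85 ± 0.19, adjusted p of 0.000453 and 0.00195 in edgeR). CHST11, a chondroitin sulfotransferase, and CHST2 rose (0.88 ± 0.29 and 0.78 ± 0.28, adjusted p of 0.0487 and 0.0640 in edgeR). In rat 1 of 32 (3.13%), CHST3, passed the ratio, on the tibia side, against 8.14% of all genes with reads. The list median was -0.14 in mouse, -0.62 in rat and -0.02 in macaque.

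Of 8 related leucine-rich repeat proteins, CHAD, a cartilage matrix protein, was the only one called in mouse, with 6.55 ± 6.67 (SD, n = 2) normalized CPM in calvaria and 144 ± 40.4 in tibia (log2 fold change -4.45 ± 0.59, SE, adjusted p = 0.00148 in edgeR). In rat 3 of 6 (50%) passed on the tibia side, against 8.14% of all genes with reads, and in macaque none of 5 was called. The list median was 0.23 in mouse, -1.997 in rat and 0.28 in macaque. Of the other matrix proteoglycans, PRG4, the lubricant of joint surfaces, had a log2 fold change of -7.40 ± 0.58 (SE, adjusted p = 1.5e-05 in edgeR) and SDC3, a membrane heparan sulfate proteoglycan, of -1.32 ± 0.34 (adjusted p = 0.104) in mouse. SPOCK3 was called as higher in mouse calvaria, at 4.23 ± 5.23 (SD, n = 2) normalized CPM there, so M4 and M8 were far apart. Neither tibia library had SPOCK3 reads, so no fold is given. The cartilage markers of the mouse tibia moved with CHAD and PRG4, and the blood cell markers of the macaque calvaria with SRGN, and the part of those cells was not tested. In macaque SRGN, the granule proteoglycan of blood cells, rose in calvaria (1.41 ± 0.21, adjusted p = 3.8e-06 in edgeR), as did SPOCK3 (1.46 ± 0.52, adjusted p = 0.0654) and SDC4 (2.20 ± 1.00, adjusted p = 0.185), and GPC4, a glypican, fell (-1.12 ± 0.20, adjusted p = 8e-05). In rat 3 of 14 (21.4%) passed, on the tibia side, against 8.14% of all genes with reads. The list median was -0.09 in mouse, -1.50 in rat and 0.06 in macaque.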

How the data were processed

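Raw counts of reads per gene, as deposited by the authors, were analysed; the authors counted them with HTSeq on merged exons without regard to strand. The deposited tables keep genes without reads, which the study left out before its own test of expression and which are an alternative here. The study's methods name HISAT2 as the aligner, whereas the submitters' processing notes list BWA. The normalized signal that the authors deposited beside the counts was not used. Exonic lengths came from the deposited tables. Rows naming no gene, from 0.00261% to 0.0663% of the reads of a library, were left out, the case of symbols was ignored and rows of 1 symbol were summed. In macaque 5938 of 17111 LOC rows took a symbol from a RefSeq table of a newer assembly.

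Mouse and macaque were fitted separately over genes with at least 1 read, with edgeR 4.0.16 in R 4.3.3 (TMM, estimated dispersions, quasi-likelihood test, Benjamini-Hochberg). Calls needed a false discovery rate below 0.2 together with a fold change above 1.1. A standard error is the fold change divided by the square root of F. Where no library of either site exceeded 3 reads no fold was given. DESeq2 1.42.0, scipy 1.17.1 and matplotlib 3.10.9 were also used, and the steps were tested on simulated data. The alternatives were 12 settings in mouse, 14 in macaque, 4 in rat and 3 for the interaction, and fits without each library. In macaque, deviations from the site means correlated over 12088 genes at an r of 0.206 between G1 and G2, 0.289 between G3 and G4, and 0.450 between T1 and T2. Other combinations gave from -0.358 to 0.0889, so the pairs of the study were taken as those 3 in the replicate block, and genes are not independent replicates. In mouse r was 0.0157 for M4 with M5 and M8 with M7, and -0.0157 for the other combinations. With 2 libraries a site these values can differ only in sign, so the mouse pairs were assumed without such grounds. Separate animals or pools underlie the libraries of a site. From each other list the called genes with the smallest p, up to 3 in each direction, were named. Among the marker lists only those of osteocytes, osteoblasts, cartilage and fibroblasts had genes named, their first 3. In rat, where there is no p, genes were named after their values were seen. The members and lists were chosen with earlier results of these data known.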

Additional observations from a re-analysis of the deposited data

Results flagged for a closer look

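DCN differed in direction between mouse and rat. Both mouse calvaria libraries lay below both tibia libraries, whereas the rat calvaria lay above the rat tibia with a log2 ratio of 0.23, on 1880 and 1373 reads. With 1 rat library a site the difference between the species was not tested. The rat value stayed between 0.23 and 0.52 over the settings run.

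The macaque table has no row named ASPN or EPYC but holds 2 rows described as like asporin and epiphycan, LOC716597 and LOC709645, which were looked for after the values were seen and entered no comparison. LOC716597 had 13 reads in T2, 3 in G2 and none in the other 4 libraries. LOC709645 had 8 reads in T2 and none elsewhere. Each exceeded, in T2, the 3 reads that a count of 0 allows, and these limits cover counting error only.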

How the results depend on the processing

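In macaque the calls of FMOD and PRELP held in every one of the 14 settings and 6 fits without a library. The G libraries alone, a setting chosen after seeing the data, also called 2 members, and 24.0% of all genes. They turned DCN to 0.0624 and OMD to 0.0113. Library size alone called 4 members, adding DCN and LUM, and 23.8% of all genes against 19.7%. It moved the median log2 fold change of all genes from 0.03 to -0.18 and the share of calls on the calvaria side from 52.2% to 30.7%. In mouse the 2 calls became 1 with RLE factors, library size alone, DESeq2 or the replicate block, and 0 with edgeR's exact test, filterByExpr, reads in every library, genes read in all 3 species or a false discovery rate under 0.05. With filterByExpr 29 mouse genes of any kind were called, with reads in every library 14 and with genes read in all 3 species 32, against 510. The block called 295 mouse genes, RLE factors 472, library size alone 415, DESeq2 468, the exact test 451 and a false discovery rate under 0.05 208. In the interaction the replicate block called 1 member, against 0, and 1011 genes against 566, and turned OGN to 0.12. In rat 2 members, FMOD and PRELP, passed a threshold of 1, as 31.6% of all genes with reads did. TMM factors turned LUM to 0.0519 and moved the share of ratios past 2 on the calvaria side from 16.0% to 31.5%. The replicate block changed no call of a member in macaque.

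Without each library in turn, from 1 to 9 members were called in mouse, 2 to 3 in macaque and 0 to 4 in the interaction. Without M4, 9 were called, and without M8, 7; such a fit assumes that the lone calvaria library varies like the tibias. Calls among all genes also rose without M4 and without M8, both in mouse and in the interaction. The counts of called members in these fits were therefore not read as a trait of the members. In macaque 3 members were called without G2 and without G4, as were 13.5% and 15.0% of all genes. The ranges that follow are over the fits without 1 library. For EPYC the log2 difference ranged from -3.09 to -1.86 in the mouse fits of this kind that kept M4. Without M4 none is given for EPYC, as M8 had no EPYC reads. The log2 difference of other genes ranged in mouse from -0.88 to 0.11 for BGN, -0.0678 to 3.02 for ASPN, -2.92 to 0.29 for FMOD and -0.72 to 1.58 for LUM. It ranged from -0.63 to 1.79 for OMD, -1.49 to 0.52 for OGN, -2.46 to -0.46 for PRELP and 0.14 to 1.62 for KERA. In macaque it ranged from -0.56 to 0.11 for DCN, -0.14 to 1.41 for BGN, -0.37 to 0.19 for OMD and -0.90 to 0.0750 for OGN, and in the interaction from -2.24 to 0.96 for FMOD, -1.81 to 0.47 for LUM, -1.29 to 0.68 for PRELP, -1.97 to 0.43 for OMD and -0.92 to 1.07 for OGN. The cause of these changes was not tested. The log2 ratio of DCN to BGN, calvaria minus tibia, lay between -1.40 and -1.002 in mouse and between -1.41 (without T1) and -0.41 (without G1) in macaque. Few reads limit the precision for BGN and KERA in macaque and for KERA and EPYC in mouse, and 4 rat genes had no reads.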
